A study of Mus musculus with 5 samples.

Results

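The cadherins and catenins described here are 10 genes of the cell-to-cell junctions, taken from the 49671 rows of the deposited count table by gene name: the cadherins Cdh1, Cdh2, Cdh3 and Cdh11, the catenins Ctnna1, Ctnnb1, Ctnnd1 and Jup, and the desmosome genes Dsp and Pkp2. Each name matched a single row. They were followed in mouse embryos that lose Oct4, the POU factor encoded by Pou5f1, at about E6.75, around the start of gastrulation. The mutants (SO−, 3 embryos) were Sox2Cre+/- with Oct4 fl/-, and the controls (SO+, 2 embryos) were Sox2Cre-/- with Oct4 fl/+, on a mixed strain background. All 5 embryos thus carry a floxed allele, and Cre and the null allele are carried by the mutants alone. Cre is driven by the Sox2 promoter and recombines mainly in the epiblast. Each library came from a single embryo after removal of the extra-embryonic ectoderm (ExE), so that it holds epiblast and visceral endoderm (VE) together. In such a sample, fewer cells of a type and less RNA per cell cannot be told apart.

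Classical cadherins join neighbouring cells through their extracellular domains, and their tails bind p120-catenin (Ctnnd1) and either β-catenin (Ctnnb1) or plakoglobin (Jup). α-Catenin (Ctnna1) connects this complex to actin. In desmosomes, plakoglobin and plakophilin 2 (Pkp2) link desmosomal cadherins to desmoplakin (Dsp), which holds intermediate filaments. The epiblast and VE are epithelia rich in E-cadherin (Cdh1), and cells that pass through the primitive streak lower E-cadherin and gain N-cadherin (Cdh2), a change often followed as the ratio of the pair.

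Values are listed below by embryo number, SO+ embryos 1 and 2 before SO− embryos 1, 2 and 3. Library totals ranged from 27047148 to 27538119 counts for SO+ and from 1117566 (SO− embryo 2) to 4191498 counts for SO−. Levels are in CPM, the standard scaling of a count by its library total, and 3 counts correspond to 0.109 to 0.111 CPM in SO+ and 0.716 to 2.68 CPM in SO−. Pou5f1 had 920.2 and 435 CPM in SO+ and 27.8, 12.5 and 43.7 CPM in SO−, each in the direction of its label. Summed epiblast markers (10 of 10 detected) were 5364 to 6668 CPM in SO+ and 2545 to 3617 CPM in SO−. This sum includes Pou5f1 itself, and its largest part is Dnmt3b (means of 3623 CPM in SO+ and 1813.5 in SO−). In edgeR's test 4 of its 10 genes passed as lower (Pou5f1, Utf1, Dnmt3b and L1td1), against 0.928% of all genes tested. The means of Tdgf1 (443 and 333 CPM), Otx2 (230 and 196 CPM) and Pou3f1 (74.6 and 39.3 CPM) were also lower in SO− but did not pass. Those of Fgf5 (314 and 405 CPM), Sox2 (7.68 and 11.1 CPM) and Nanog (53.8 and 54.7 CPM) were not lower in SO−. Summed markers of the VE (15 of 15 detected) were 5359 and 5537 CPM in SO+ and 5080 to 7770 CPM in SO−, and those of the primitive streak and mesoderm (12 of 12 detected) were 706 and 1044 CPM in SO+ and 913.5 to 1203 CPM in SO−. ExE markers (10 of 10 detected) summed to 24.5 and 29.5 CPM in SO+ and 37.0 to 59.1 CPM in SO−, the defining ExE gene Elf5 being at 0.109 and 0.185 CPM in SO+ and at 0 to 2.62 CPM in SO−. Maternal and blood markers, of which 10 of 15 were at 0 throughout (Ptprc and the globin Hbb-y among them), stayed between 1.56 and 5.73 CPM. The part of tissue content and of depth in the results below was not tested, other than where values are given.

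Of the 10 genes, 2 passed the test as higher in SO− embryos: Cdh2, at 1.96-fold, and Jup, at 1.55-fold. The Cdh2 call was close to the threshold (adjusted p = 0.0445 from edgeR). In another fit, limma-voom, neither passed (adjusted p = 0.227 for Cdh2 and 0.0783 for Jup). None fell. Cdh1 RNA was 0.943-fold of the control level with a 95% interval from 0.791 to 1.12. The fit was edgeR's quasi-likelihood test across 12067 genes, with p-values adjusted by Benjamini-Hochberg over all of them and a threshold of 0.05, and fold changes are given as SO− over SO+. Over all genes tested, 2.35% passed, 1.42% as higher and 0.928% as lower in SO−. An unadjusted p under 0.05 held for 5 of the 10 genes, against 13.7% of all genes. Values did not overlap between genotypes for 5 of the 10, all higher in SO− (Cdh2, Cdh3, Cdh11, Ctnna1 and Jup), whereas 29.5% of all genes did not overlap, 13.9% as higher and 15.6% as lower. The median log2 fold change was 0.36 over the 10 genes and -0.0019 over all genes.

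**Figure D1:**
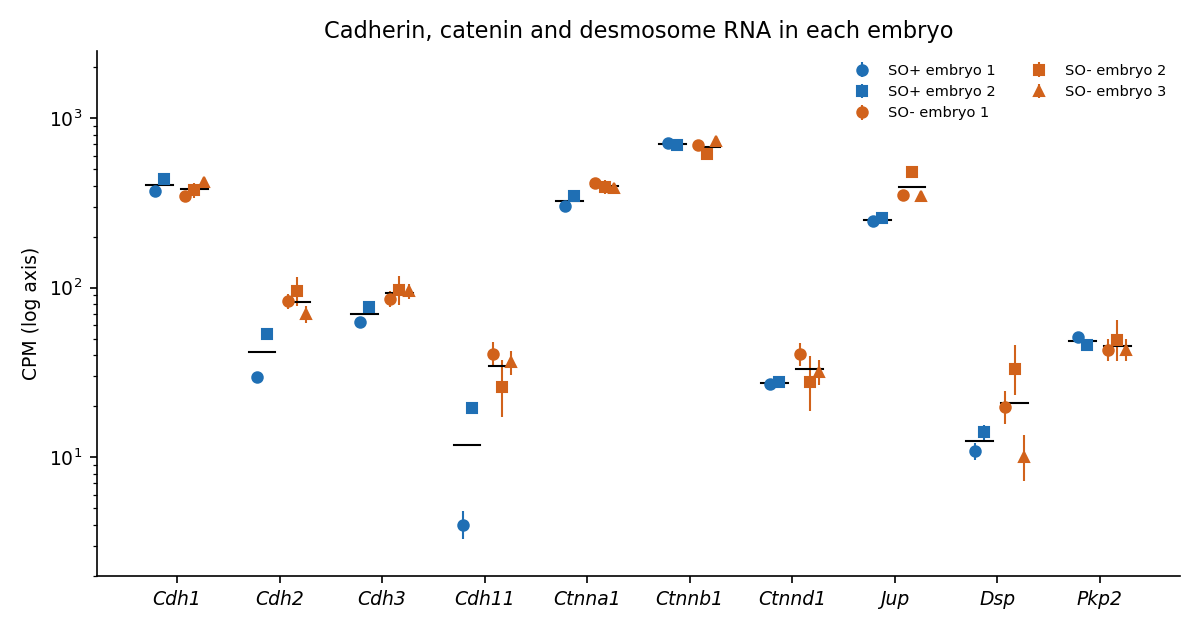
CPM of the 10 genes in each embryo on a log axis, with SO+ in blue and SO− in orange; symbols mark the embryo number, bars the exact 95% Poisson interval of the count, and black lines the group means. Cdh1, Ctnnb1, Ctnnd1, Dsp and Pkp2 overlap between genotypes, and SO+ embryo 1 has the lowest Cdh2 (29.9 CPM) and Cdh11 (3.99 CPM).

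Levels of different genes were compared per kilobase of merged exon (RPKM, CPM divided by exon length). In SO+ embryos Ctnnb1 was highest at 135 ± 3.04 RPKM (SD, n = 2), followed by Cdh1 (88.7 ± 9.73), Ctnna1 (50.8 ± 4.62), Jup (39.2 ± 1.05), Cdh3 (15.9 ± 2.21), Pkp2 (9.10 ± 0.68), Cdh2 (5.17 ± 2.07), Ctnnd1 (3.76 ± 0.090), Cdh11 (1.32 ± 1.23) and Dsp (1.29 ± 0.24). Within this order, the RPKM values of Cdh2 and Ctnnd1 overlapped, and so did those of Cdh11 and Dsp. Averaged over all 5 embryos, Cdh1 was above 94.3% of the 12059 tested genes with a length, and Dsp was above 22.2%. In SO− embryos the order was the same apart from Cdh2 (10.3 ± 1.62 RPKM, SD, n = 3), which stood before Pkp2 (8.39 ± 0.68). In SO− the values of Cdh2 and Pkp2 overlapped, as did those of Ctnna1 (61.9 ± 2.08) and Jup (61.1 ± 11.8), of Ctnnd1 and Cdh11, and of Cdh11 and Dsp.

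Cdh1 (ENSMUSG00000000303; GRCm38 chromosome 8, 106603351 to 106670246) encodes E-cadherin. Its level was 374 and 437 CPM in SO+ against 345, 375 and 422 CPM in SO−. Both genotypes spanned nearly the same range, and the lowest embryo was a mutant. Its log2 fold change was -0.085 (SE 0.12, adjusted p = 0.844 from edgeR), and it was 0.032 (adjusted p = 0.966) without SO+ embryo 2. A rise above 1.12-fold or a fall below 0.791-fold lay outside the 95% interval. These values cover neither protein nor the position of the message within the embryo.

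Cdh2 (ENSMUSG00000024304; chromosome 18, 16588877 to 16809246) encodes N-cadherin. Its level was 29.9 and 53.5 CPM in SO+ against 83.0, 95.7 and 69.7 CPM in SO−. Every mutant was above every control, the closest pair being 1.30-fold apart, while the controls themselves differed 1.79-fold. The log2 fold change was 0.97 (SE 0.23, 95% interval 0.47 to 1.47, adjusted p = 0.0445 from edgeR). Only 7.17% of all tested genes had a fold change of this size or larger, but the call lay close to the threshold. It was lost without SO+ embryo 1 (log2 fold change 0.60, adjusted p = 0.196 from edgeR) and without SO− embryo 1, 2 or 3 (adjusted p = 0.309, 0.345 and 0.0653), and without SO+ embryo 2 the log2 fold change was 1.45 (adjusted p = 4.56e-05).

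Cdh3 (ENSMUSG00000061048) encodes P-cadherin and lies 46.1 kb before Cdh1 on the same strand of chromosome 8, from 106510891 to 106557297. P-cadherin message was at 63.1 and 76.8 CPM in SO+ against 85.9, 96.6 and 95.2 CPM in SO−. The genotypes did not overlap, although the neighbouring Cdh1 did. Its log2 fold change of 0.40 (SE 0.15, adjusted p = 0.213 from edgeR) did not pass.

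Cdh11 (ENSMUSG00000031673; chromosome 8, 102632095 to 102785642) is a cadherin of mesenchymal cells. SO+ embryos held 110 and 528 of its reads (3.99 and 19.5 CPM), and SO− embryos held 169, 29 and 152 (40.9, 25.9 and 36.3 CPM). All mutants were higher than both controls, but the controls differed 4.89-fold, the widest gap within a genotype among the 10 genes. The 29 counts of SO− embryo 2 give an exact 95% Poisson interval of 17.4 to 37.3 CPM, which contains the value of SO+ embryo 2. The log2 fold change was 1.59 (SE 0.48, adjusted p = 0.131 from edgeR) and moved from 0.86 without SO+ embryo 1 to 3.15 (adjusted p = 4.55e-07) without SO+ embryo 2. The streak and mesoderm markers summed to 706 CPM in SO+ embryo 1 and 1044 CPM in SO+ embryo 2, and over both genotypes 1 of the 11 tested (Fgf8) passed, as higher in SO−. The part of such markers in the Cdh2 and Cdh11 values was not tested.

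**Figure D2:**
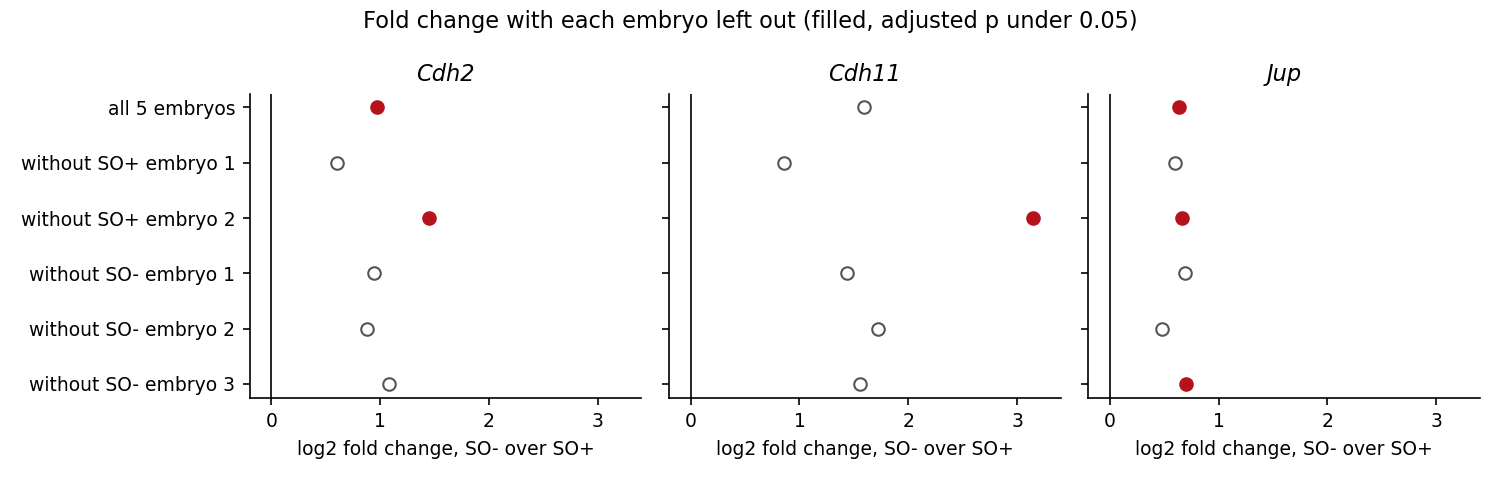
Log2 fold change (SO− over SO+) of Cdh2, Cdh11 and Jup with all 5 embryos and with each left out in turn; filled points passed edgeR's test at an adjusted threshold of 0.05. All points lie above 0, and Cdh11 ranges from 0.86 to 3.15.

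The ratio of Cdh2 to Cdh1 compares the pair within a library, so that scaling between libraries cancels. Per kilobase it was 0.0453 and 0.0694 in SO+ against 0.136, 0.145 and 0.0936 in SO−. Every mutant had a higher ratio than every control, the nearest being SO− embryo 3, at 1.35-fold above SO+ embryo 2. The mean log2 ratio was -4.16 ± 0.44 (SD, n = 2) in SO+ and -3.03 ± 0.34 (SD, n = 3) in SO−, a difference of 1.13 or 2.19-fold (exact permutation test over the 10 ways to divide the embryos, two-sided p = 0.1, the smallest that 2 embryos against 3 allow; 0.167 after adjustment over 5 ratios). Since this p cannot fall under 0.05, the difference is described by its size and by the lack of overlap. Cdh2 alone did not overlap either, and neither did the CPM of 29.5% of all genes tested. The difference was between 0.82 and 1.44 with any embryo left out. The ratio stayed far under 1 in all embryos, so that Cdh1 message exceeded Cdh2 message in every mutant.

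The ratios of the other cadherins to Cdh1 were also higher in every mutant than in every control. Cdh3 to Cdh1 was 0.176 and 0.183 in SO+, and 0.259, 0.269 and 0.235 in SO− (log2 difference 0.50, exact permutation test, p = 0.1, adjusted 0.167). Cdh11 to Cdh1 was 0.00548 and 0.0229 in SO+, and 0.0608, 0.0356 and 0.0441 in SO− (log2 difference 2.03, exact permutation test, p = 0.1, adjusted 0.167). These ratios share Cdh1 and are not independent of each other. The CPM of Cdh3 and of Cdh11 alone did not overlap either, while that of Cdh1 did. Expressed as a share of the summed RPKM of the 4 cadherins, Cdh1 made up 81.5% and 78.4% in SO+ against 68.7%, 69.0% and 72.8% in SO−. Cdh2 made up 3.69% and 5.44% in SO+ and 6.81% to 9.99% in SO−. The sum itself overlapped, with 100.4 and 122 RPKM in SO+ and 110, 119 and 127 RPKM in SO−.

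**Figure D3:**
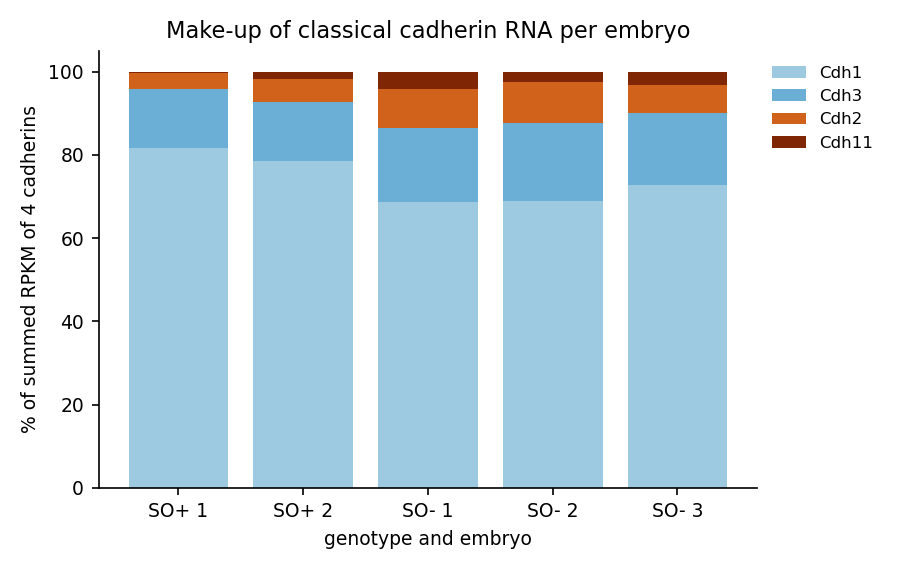
Share of Cdh1, Cdh3, Cdh2 and Cdh11 in their summed RPKM, 1 stacked bar per embryo. The Cdh1 share is 78.4% or more in SO+ and 72.8% or less in SO−.

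The summed VE markers were 5359 and 5537 CPM in SO+ against 7595, 7770 and 5080 CPM in SO−. Of these 15 genes, 1 (Spink1) passed edgeR's test, as higher in SO−. The log2 fold change was positive for 14 of the 15, against 5997 of all 12067 genes tested. Its median was 0.38 over the 15 markers and 0.36 over the 10 junction genes. In edgeR's test 6 of the 15 had an unadjusted p under 0.05, against 13.7% of all genes. The part of VE content in the Cdh2 to Cdh1 ratio and in the levels of the 10 genes was not tested.

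Among the catenins, Jup passed the test and Ctnnb1, its close relative in sequence, did not. Jup (ENSMUSG00000001552; chromosome 11, 100368958 to 100397763, minus strand) was at 247 and 257 CPM in SO+ against 350.0, 481 and 349 CPM in SO−. The controls differed 1.04-fold, and the lowest mutant was 1.36-fold above the higher control. Its log2 fold change was 0.63 (SE 0.14, 95% interval 0.34 to 0.93, adjusted p = 0.0277 from edgeR). The call was lost without SO+ embryo 1 (adjusted p = 0.0537 from edgeR), SO− embryo 1 (0.145) and SO− embryo 2 (0.150), with log2 fold changes of 0.59, 0.70 and 0.48, and was kept without SO+ embryo 2 (0.0126) and SO− embryo 3 (0.0350).

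Ctnnb1 (ENSMUSG00000006932; chromosome 9, 120929216 to 120960507) encodes β-catenin, which serves junctions and the WNT pathway. Its level was 714 and 692 CPM in SO+ against 690.5, 612 and 733 CPM in SO−. The genotypes overlapped, and the log2 fold change was -0.041 (SE 0.10, 95% interval -0.26 to 0.18, adjusted p = 0.930 from edgeR). Of its 5192 exon bases, 15.1% also lie in exons of other genes, chiefly Ulk4 on the opposite strand, which had 217 counts over all embryos. The ratio of Jup to Ctnnb1 was 0.280 and 0.300 in SO+, and 0.409, 0.635 and 0.384 in SO− (log2 difference 0.68, exact permutation test, two-sided p = 0.2, adjusted 0.25). It did not overlap between genotypes, and SO− embryo 2, the smallest library, was the highest. Jup alone did not overlap either, while Ctnnb1 did.

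**Figure D4:**
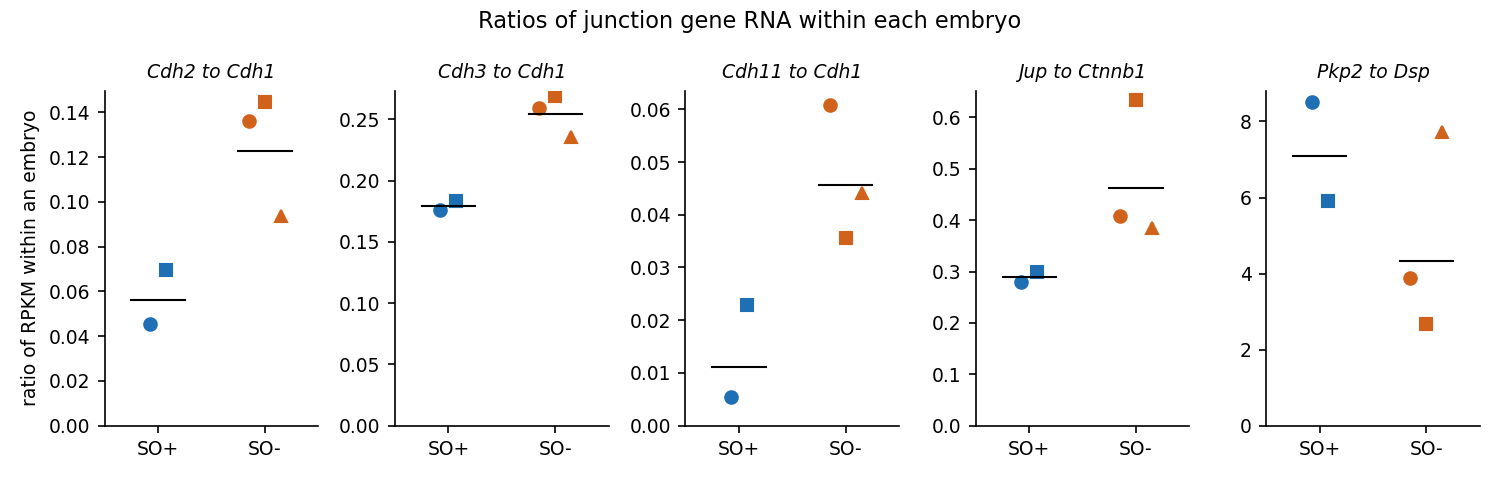
Ratios of RPKM within each embryo for 5 pairs of genes, each on its own axis from 0; symbols mark the embryo number and black lines the geometric mean of a genotype. The first 4 ratios do not overlap between SO+ and SO−, and Pkp2 to Dsp does.

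Promoter sequence was at hand in RefSeq (GRCm38.p6) for 4 of the 10 genes: Jup, Ctnnb1, Ctnnd1 and Dsp. The 250 bases before the start of Jup and before a start of Ctnnb1 are shown because Jup passed the test and its paralog did not, although their ratio, given above, did not pass a test of its own. The Jup window is chr11:100397791-100398040 on the minus strand and the Ctnnb1 window is chr9:120933150-120933399 on the plus strand, and neither overlaps an annotated exon. Capitals mark CCAAT and GGGCGG, the cores of the CCAAT box and the GC box, on either strand, and no matches overlap.
Jup: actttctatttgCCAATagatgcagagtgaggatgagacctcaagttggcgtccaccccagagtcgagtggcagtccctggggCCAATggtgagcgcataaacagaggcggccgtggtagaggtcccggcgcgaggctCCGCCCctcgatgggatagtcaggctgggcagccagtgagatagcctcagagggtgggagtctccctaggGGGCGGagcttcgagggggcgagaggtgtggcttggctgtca
Ctnnb1: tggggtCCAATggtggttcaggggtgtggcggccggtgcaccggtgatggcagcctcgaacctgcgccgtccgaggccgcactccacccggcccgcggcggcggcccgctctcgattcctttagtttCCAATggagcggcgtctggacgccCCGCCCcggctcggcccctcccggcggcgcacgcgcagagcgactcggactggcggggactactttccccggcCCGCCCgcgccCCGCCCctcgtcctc
The Jup sequence had 62.0% G and C with 13 CpG dinucleotides, and the Ctnnb1 sequence had 74.8% with 35. In windows of 300 bases (250 before and 50 after a start), Jup held 2 CCAAT and 2 GGGCGG matches and Ctnnb1 held 2 and 3 at the start shown. The window of another Ctnnb1 start (120933328 to 120933627), which overlaps a Ctnnb1 exon, held 0 and 3. Among 32851 promoters, 37.4% held CCAAT and 35.7% held GGGCGG. The octamer ATGCAAAT, a motif of POU factors found in 1.74% of promoters, was in none of the 6 windows of these 4 genes. The E-box CAGGTG, which Snail factors bind and which 20.2% of promoters hold, matched once, in Dsp. A match or its absence in these windows is a description of the letters alone.

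Ctnna1 (ENSMUSG00000037815; chromosome 18, 35118859 to 35254779) is the actin-binding α-catenin. Its level was 305 and 347 CPM in SO+ against 413, 393 and 387 CPM in SO−. No mutant overlapped a control, and the log2 fold change of 0.29 (SE 0.10, adjusted p = 0.210 from edgeR) did not pass. Its 95% interval ran from 1.05 to 1.43-fold.

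Ctnnd1 (ENSMUSG00000034101; chromosome 2, 84600071 to 84650765) encodes p120-catenin, which keeps cadherins at the membrane. Its level was 27.0 and 28.0 CPM in SO+ against 40.4, 27.7 and 31.7 CPM in SO−, and SO− embryo 2, with 31 counts, lay between the controls. The log2 fold change was 0.31 (SE 0.21, adjusted p = 0.576 from edgeR). Of its 7319 exon bases, 61.2% are shared with Gm28635, annotated on the same strand, which had 0 counts in all embryos. HTSeq-count can leave reads in shared bases uncounted, depending on a setting that is not given in the sources used here, so the level of Ctnnd1 relative to other genes is uncertain. Divided by its 2837 unshared bases alone, the mean would be 9.69 RPKM in SO+ and 11.7 in SO−, against 3.76 and 4.55 over all its exons.

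The summed RPKM of the 4 catenins was 227 and 231 in SO+, and 257, 258 and 260 in SO−. All mutants were higher, with a mean of 258 ± 1.55 (SD, n = 3) against 229 ± 2.72 (SD, n = 2). Jup, Ctnna1 and Ctnnd1 had higher mean RPKM in SO−, and Ctnnb1 a lower one. The sum includes the uncertain level of Ctnnd1. By CPM, 13.9% of all genes tested were higher in every mutant than in every control.

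Of the desmosome genes, Dsp (ENSMUSG00000054889, chromosome 13, 38151294 to 38198577) had 10.9 and 14.1 CPM in SO+ and 19.8, 33.1 and 10.02 CPM in SO−. SO− embryos 1 and 2 were above the controls and SO− embryo 3 was below them, a 3.30-fold range within the mutants. The log2 fold change was 0.64 (SE 0.39, adjusted p = 0.525 from edgeR), close in size to that of Jup but with a wider spread. Pkp2 (ENSMUSG00000041957, chromosome 16, 16213318 to 16272712) had 51.3 and 46.2 CPM in SO+ and 42.8, 49.2 and 42.9 CPM in SO−. These overlapped, with a log2 fold change of -0.13 (SE 0.17, 95% interval -0.48 to 0.23, adjusted p = 0.829 from edgeR). The ratio of Pkp2 to Dsp was 8.52 and 5.91 in SO+, and 3.89, 2.68 and 7.72 in SO− (exact permutation test, p = 0.3, adjusted 0.3).

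**Figure D5:**
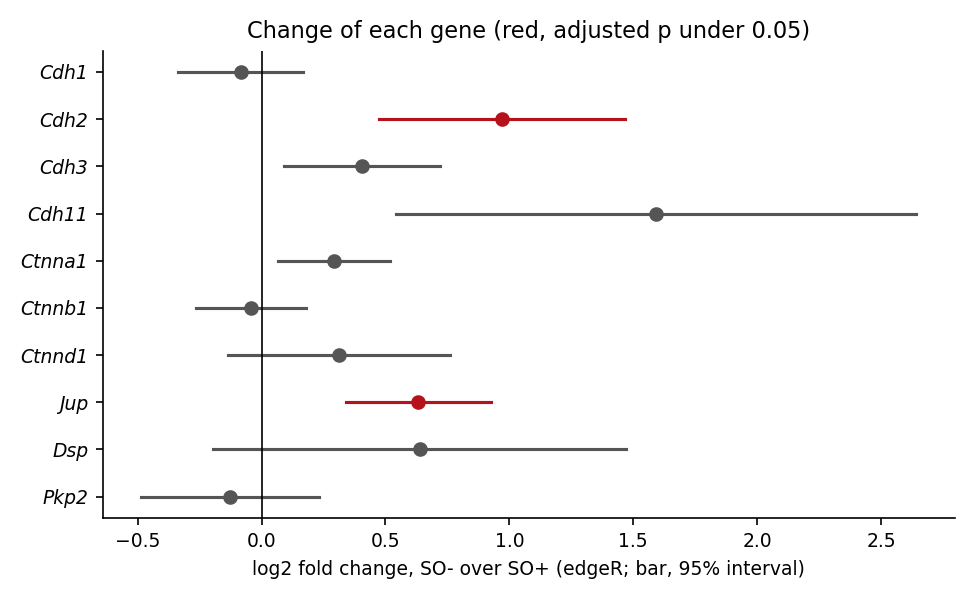
Log2 fold change (SO− over SO+) of each gene with its 95% interval from edgeR; red marks an adjusted p under 0.05 over 12067 genes. The intervals of Cdh1, Ctnnb1, Ctnnd1, Dsp and Pkp2 include 0, and those of the other 5 genes lie above it.

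Other genes of the junction were taken from 8 lists with 131 genes, of which 83 had enough counts to be tested. None passed in edgeR's test, against 2.35% of all genes, and 17 of the 83 had an unadjusted p under 0.05, against 13.7% of all genes. In other fits limma-voom passed none and DESeq2 passed 2 (the protocadherins Pcdh7 and Pcdh19). The median log2 fold change of the 83 genes was 0.047. Of the other cadherins, 14 of 35 were tested, and the most abundant were Fat1, a giant atypical cadherin (49.9 CPM in SO+ and 54.4 in SO−, adjusted p = 0.836 from edgeR), and Clstn3 (24.8 and 13.8 CPM, 0.182). Of the non-clustered protocadherins, 5 of 12 were tested, led by Pcdh1 (68.6 and 61.3 CPM, 0.700) and Pcdh7 (10.5 and 31.5 CPM, 0.0668). Of 4 nectin genes tested of 5, the most abundant were Nectin2 (127 and 166 CPM, 0.261) and Pvr (54.3 and 68.2 CPM, 0.531). The classical desmosomal partners were not called either: of 5 tested desmosome genes out of 14, Dsg2 had 53.3 CPM in SO+ and 71.7 in SO− (adjusted p = 0.318), and Dsc2 had 24.2 and 31.4 CPM (0.700). Dsg1a, Dsg3, Dsc1 and Dsc3, named after their values were seen, were at 0 in all 5 embryos.

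Of 16 tested plaque genes out of 19, the actin crosslinker Actn4 had 471 CPM in SO+ and 486 in SO− (adjusted p = 0.919 from edgeR), and the LIM protein Ajuba had 218 and 153 CPM (0.152). All 9 genes of the β-catenin destruction complex were tested and none had an unadjusted p under 0.05. The 2 most abundant were the kinase Csnk1a1 (261 and 230.5 CPM, adjusted p = 0.518) and the ubiquitin ligase subunit Fbxw11 (193 and 204 CPM, 0.881). Of 17 tested genes of cadherin processing and turnover out of 18, the phosphatase Ptprf (362.5 and 388 CPM, 0.786) and Rab11a (231 and 233 CPM, 0.974) were the most abundant. Of 13 tested regulators of Cdh1 transcription out of 19, these were Eomes (231 and 240 CPM, 0.938) and Tcf3 (231 and 235 CPM, 0.957). The Cdh1 repressor Snai1 had 24.7 and 25.1 CPM in SO+ and 29.3, 21.5 and 20.8 CPM in SO−, and was named here after its values were seen.

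The 3 genes whose values followed those of Cdh1 most closely over the 5 embryos were Stip1, Xpo1 and Sfpq, with a root mean square difference of 0.027 to 0.039 in centred log2 CPM among 858 genes of similar level. For Cdh2 they were Zfp36l1, Cited2 and Plekhf2, at 0.090 to 0.13 among 3852 genes. Zfp36l1, for example, had 44.1 and 66.8 CPM in SO+ and 103, 123.5 and 91.9 CPM in SO−, the same order of embryos as Cdh2.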

How the data were processed

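RNA was sequenced with SmartSeq2, which amplifies polyadenylated RNA without molecular identifiers, from 2 SO+ and 3 SO− embryos. Each is a separate sample per the labels, so that p-values measure the spread between embryos. Every SO+ library was deeper than every SO− library, and the second index in the library names also differed between genotypes. The p-values cannot tell genotype from either. Upstream, pre-amplification adapters were trimmed (cutadapt), STAR placed the reads on GRCm38, and HTSeq-count tallied them over Ensembl genes. The authors deposited these raw counts, which are not normalized. Use of strand and duplicate removal are not given in the sources used here.

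Counts were analysed with edgeR 4.0.16 in R 4.3.3 (TMM scaling, the filterByExpr filter, a quasi-likelihood test with genotype alone in the design, Benjamini-Hochberg over 12067 genes, threshold 0.05). SE is the absolute log2 fold change over the square root of F, and intervals are 95%. CPM are counts scaled by the library total, and RPKM use merged exons of GENCODE M21 (GRCm38). Poisson intervals and the floor of 3 counts cover counting error only. Ratios were tested by exact permutation (scipy 1.17.1). The test was tried on simulated counts with known answers.

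The 10 genes and the lists were chosen with earlier results of these data known. Genes named are the 10, Pou5f1, listed genes that passed or the 2 most abundant of a list with none, and the 3 most alike to Cdh1 and Cdh2. Other names were chosen after their values were seen. Alternatives were DESeq2 1.42.0, limma-voom (limma 3.58.1), other scalings and filters, a robust fit, the replicate number as a block, libraries thinned to the smallest (median of 10 draws), and each embryo left out.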

Additional observations from a re-analysis of the deposited data

How the results depend on the processing

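The number of the 10 genes that passed was 2 with all embryos, with DESeq2, RLE scaling and no filter on low counts, 0 with limma-voom, 1 without scaling factors, with a minimum of 1 CPM in 2 embryos, with the robust fit and with libraries thinned to the smallest (Jup in each), and 0 to 3 with an embryo left out. Cdh2 had an adjusted p of 0.0509 without scaling factors, 0.0555 with the robust fit, 0.0586 with the 1 CPM minimum, 0.0603 thinned and 0.227 with limma-voom, and Jup had 0.0783 with limma-voom. Over all genes, 283 passed, against 91 with limma-voom and 35 to 573 with an embryo left out. Of the listed junction genes 0 passed, against 2 with DESeq2, 1 without the filter, 1 thinned and 0 to 6 with an embryo left out. Where a genotype was left with a single embryo, it was assumed to vary like the other. The sign changed for a pair of genes, neither past the threshold: the log2 fold change of Cdh1 was 0.032 without SO+ embryo 2 (-0.20 to 0.032 with any embryo left out) and that of Ctnnb1 was 0.027 without SO− embryo 2 (-0.11 to 0.027). The Cdh2 to Cdh1 difference was 0.82 to 1.44 on the log2 scale under the 9 alternatives. Its sign could not change with an embryo left out, with medians or with paired embryos, because every mutant ratio was above every control ratio. Exon length cancels in the difference. With libraries thinned to the smallest it was 1.15. The other 4 ratios kept their sign with any embryo left out, which the lack of overlap fixed for all but Pkp2 to Dsp.

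The labels give same-numbered embryos of the 2 genotypes nothing in common but a number. The correlation of their deviations was 0.015 for embryos 1 and 0.11 for embryos 2. It was 0.13 for SO+ embryo 1 and SO− embryo 3, which differ in number. The deviations of 2 SO+ embryos mirror each other, so these values cannot show whether the embryos were paired. With the replicate number as a block, which leaves 1 residual degree of freedom and no use for SO− embryo 3, which has no partner, 929 genes passed, with 4 of the 10 genes (Cdh2, Cdh11, Jup and Dsp) and 9 listed genes among them, and the paired difference of the Cdh2 to Cdh1 ratio was 1.32. The shallowest library, SO− embryo 2, limits Cdh11, Ctnnd1 and Dsp most, with 29, 31 and 37 counts.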

Other observations

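Protocadherins, adhesion molecules related to cadherins that do not bind β-catenin, had the lowest adjusted p among the listed junction genes, and were singled out after their values were seen. Pcdh7 was at 5.99 and 15.0 CPM in SO+ against 28.8, 44.7 and 21.0 CPM in SO− (log2 fold change 1.51, adjusted p = 0.0668 from edgeR and 0.00686 from DESeq2). As with Cdh2 and Cdh11, SO+ embryo 1 was the lowest and every mutant was above both controls. Pcdh19 had 0 and 9 counts in SO+ embryos and 21, 2 and 11 counts in SO− embryos, or 0 and 0.333 CPM against 5.08, 1.79 and 2.62 CPM (adjusted p = 0.0638 from edgeR and 0.0128 from DESeq2), and its value in SO− embryo 2 rests on 2 counts, under the floor of 3. Pcdh8, which marks nascent mesoderm, had 0.981 and 10.1 CPM in SO+ and 5.08, 14.3 and 4.53 CPM in SO−, so that the genotypes overlapped.

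Cdh9 was counted in SO+ embryos alone, with 24 and 113 counts (0.871 and 4.18 CPM) against 0 in each SO− embryo, where 3 counts correspond to 0.716 to 2.68 CPM, and it did not reach the expression filter. Perp, a membrane protein of desmosomes, had 6.72 and 8.91 CPM in SO+ and 23.5, 8.95 and 18.6 CPM in SO− (adjusted p = 0.116 from edgeR), a lack of overlap that rests on SO− embryo 2 at 8.95 CPM.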
